A study of Arabidopsis thaliana with 12 samples.

Results

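Open flowers were compared with flower buds within the ask1 mutant of Arabidopsis thaliana, a small flowering plant used as a model. The comparison took every library that the labels name ask1 open flower (2) or ask1 bud (2), which made 4 of the 12 libraries in the series, and all genes were examined. The ask1 plants are labelled ask1 Ds, Ds being a transposon used to make insertion mutants. The other 8 libraries came from the same tissues of plants labelled ASK1 WT, which carry the wild-type allele, and of Col-0, the standard laboratory strain. They served to test where the change from buds in ask1 differed. The labels give Col-0 as the strain of every sample, mutants included. Total RNA came from 10 to 50 mg of tissue of primary inflorescences, collected 5 h after dawn from plants kept in 16 h of light at 21 °C and 8 h of dark at 19 °C, and was read as 150-nt pairs. The labels do not say whether the 2 libraries of a group came from separate plants, nor the stages of the buds pooled in a sample. P-values thus rest on a spread between libraries that may be technical. For each gene that spread was estimated jointly over the 6 groups, not from the ask1 pairs alone. The ask1 open-flower pair differed most beyond counting noise (chi-square per degree of freedom 63.2). The value was 10.42 in ask1 buds and 3.847 to 7.123 in the control groups. A spread shared with these quieter groups can be too small for the ask1 pairs, and p-values can then be too low.

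ASK1 encodes a SKP1-like protein that joins an F-box protein to a cullin in SCF ubiquitin ligases, which mark other proteins for breakdown. Plants without it are known for male sterility, with faults in male meiosis, and for changed flower organs. As a normal flower matures, the meristem is used up, meiosis ends, the tapetum that feeds the pollen degenerates, the pollen takes on its own programme, ovules form egg cells and pollen-tube attractants, and the opened flower makes scent and nectar and begins to age. SCF ligases also act as receptors or switches for auxin, jasmonate, gibberellin and ethylene.

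Depth was 16242961 and 16534841 counts in genes in the ask1 open-flower libraries, against 17246453 and 13780265 in the ask1 bud libraries, and up to 23426466 in the series. ask1 open flower replicate 1 stood apart from its mate by gene length. Its median log2 difference from replicate 2 was 0.49 in the shortest 10% of genes and -0.81 in the longest, whose median exon lengths were 730 and 3875 nt, as the plot by length shows. The rank correlation of the difference with exon length, a description across genes, was -0.62 there and at most 0.080 in size in the other 5 groups. List counts are therefore given also without this library. ask1 bud replicate 2 held more RNA of mature-pollen genes than its mate, and more of rapid stress-response genes, as given beside those results. Whether these library differences contributed to a result was not tested unless a value without the library is given.

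**Figure D1:**
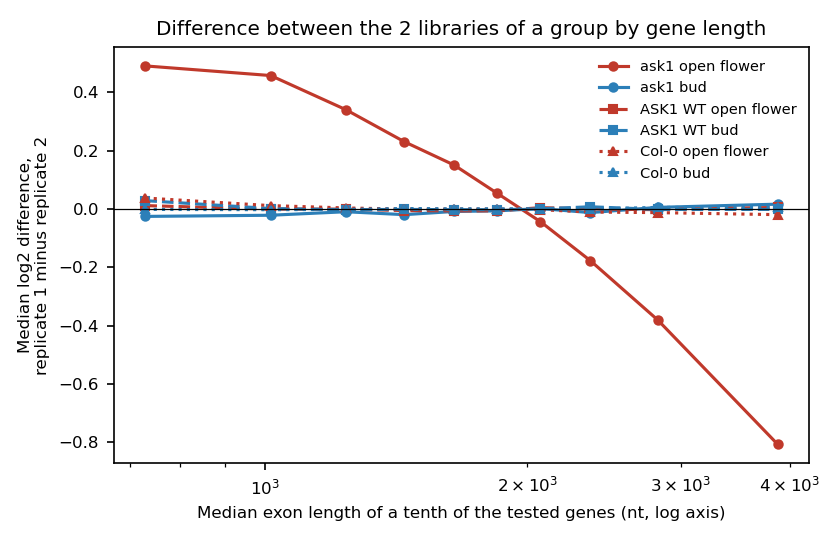
Median log2 difference between the 2 libraries of each group (replicate 1 minus replicate 2, vertical axis) in 10 equal bins of the tested genes by exon length (horizontal log axis, nt); each line is 1 group. The ask1 open-flower line falls with length to -0.81, and the other 5 groups stay near 0.

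The targeted gene checked the labels. ASK1 (AT1G75950, chromosome 1, 28516519 to 28517896, plus strand, TAIR10.1) had 50.9 and 29.6 CPM (counts relative to the library total, scaled by TMM) in ask1 open flowers, against 10.09 and 29.05 in ask1 buds. Every other library held more, with means of 293.7 ± 7.28 CPM in open flowers and 248.7 ± 1.85 in buds of ASK1 WT, and 308.5 ± 2.36 and 257.1 ± 0.892 in those of Col-0 (SD, n = 2 each). Within ask1, both open-flower libraries were above both bud libraries, replicate 2 of each by little. The log2 fold change was 1.05 ± 0.38 (SE) and did not pass (edgeR quasi-likelihood test, adjusted p = 0.0513). It was 0.58 (adjusted p = 0.439) without open flower replicate 1 and 1.99 (adjusted p = 0.000766) without bud replicate 2. ASK2 (AT5G42190), the closest relative of ASK1, had 105.8 and 72.9 CPM in ask1 open flowers and 70.6 and 68.9 in ask1 buds, and did not pass (log2 fold change 0.36 ± 0.16, adjusted p = 0.104). It overlaps the peroxidase gene PER64 on the other strand by 34 bases, and the counting strand is not given in the sources used here.

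Of 21890 genes tested, 4857 (22.2%) were higher and 3391 (15.5%) were lower in ask1 open flowers than in ask1 buds at an adjusted p below 0.05 (edgeR quasi-likelihood test, Benjamini-Hochberg over all tested genes), and 13642 passed in neither direction. In the text, rose, fell and changed are used of genes that passed. The genes that rose held 31.5% and 28.3% of counts in open flowers and 14.8% and 15.7% in buds. The genes that fell held 7.13% and 8.28% in open flowers and 17.8% and 16.9% in buds. A change of 2-fold or more was seen for 2720 of the risen and 1886 of the fallen genes, and one of 32-fold or more for 369 and 448. Without open flower replicate 1, 4591 genes were higher (20.56%) and 4490 were lower (20.11%) of 22332 tested, including 3806 and 3025 of the same genes. Without bud replicate 2, 17.96% of the genes tested were higher and 11.82% lower. Without open flower replicate 2, 5777 were lower, and without bud replicate 1, 3210 were higher. Both open-flower libraries were above both bud libraries for 7413 of the 21890 tested genes, and below both for 6034. Non-overlap of a named gene that passed is therefore a description and no separate support. The median log2 fold change over all tested genes was 0.05, and the lists are set beside it. With the 4 ask1 libraries alone (2 residual degrees of freedom), 2004 genes were higher and 1464 lower. In that fit all 8 pollen-coat genes and 25 tapetum genes fell. Several other list counts shrank against the fit of all 12 libraries. Cell-cycle falls went from 30 to 15, meiosis falls from 12 to 5, auxin-response rises from 29 to 16 and photosynthesis rises from 12 to 0. Where none of a list's members is said to have passed in a direction by edgeR, none passed at an unadjusted p below 0.05 or by DESeq2 either, except where other counts are given. In these whole-organ samples fewer cells of a type and less RNA per cell cannot be told apart.

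**Figure D2:**
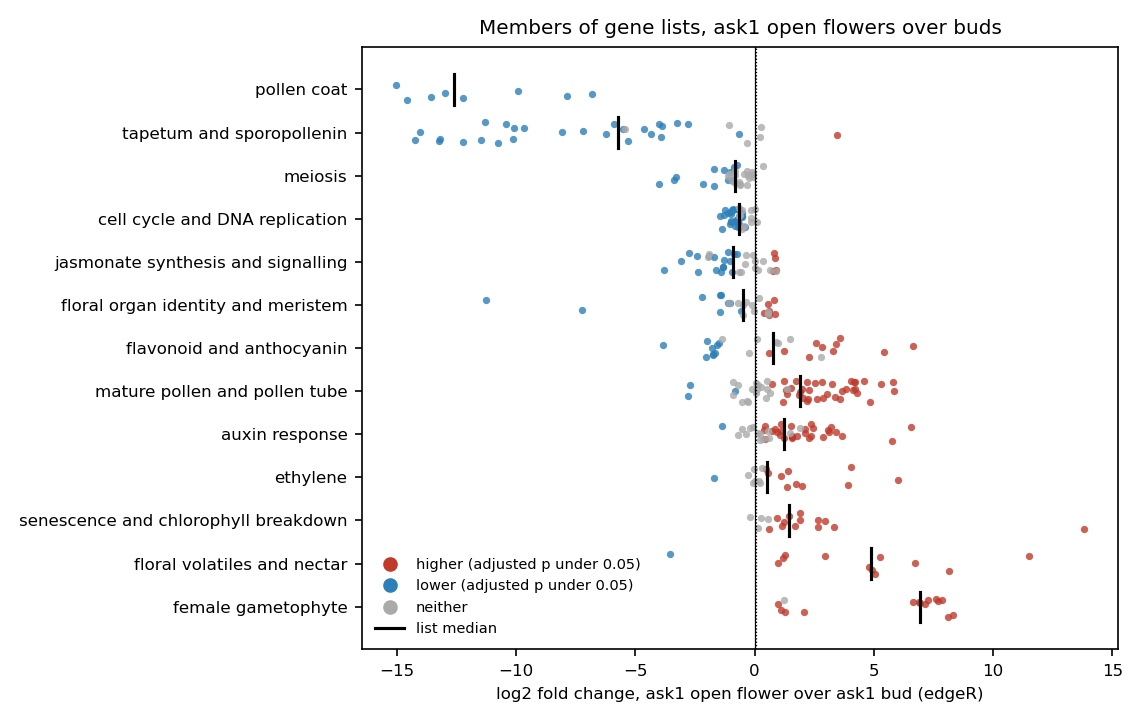
Each point is 1 tested member of a gene list, placed by its edgeR log2 fold change in ask1 open flowers over ask1 buds (horizontal axis); black bars are list medians. Tapetum and pollen-coat members lie far to the left (medians -5.71 and -12.61), and volatile, nectar and female-gametophyte members to the right (medians 4.88 and 6.92).

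The deepest falls were in genes of the tapetum, the nursing cell layer inside the anther, and of the pollen coat that it deposits. Of 32 tapetum and sporopollenin genes, 26 fell and 1 rose (median log2 fold change -5.71), and the counts were the same without open flower replicate 1. Summed over the list, they held 198.8 and 222.3 CPM in ask1 open flowers, against 2554 and 2434 in ask1 buds. All 8 pollen-coat genes fell, also without that library (median -12.61, or -10.64 with genes at 0 set to their bound), with sums of 1.80 and 0.883 CPM in open flowers and 4193 and 4288 in buds. GRP17, an oleosin-like glycine-rich protein that becomes a main protein of the pollen surface, had 0.193 and 0 CPM in ask1 open flowers, against 2366 and 2424 in ask1 buds. A ratio of summed counts of 26000-fold in favour of buds (95% interval 8880 to 126000, for counting error only) rests on the few reads in replicate 1 of the open flowers. GRP19, of the same gene cluster on chromosome 5 (2388225 to 2389249, minus strand), had 0.0642 and 0.0589 CPM in open flowers and 839.4 and 805.5 in buds. Both genes were near 0 in each open-flower library and abundant in each bud library. GRP14 and GRP18, further members of the same cluster, fell by 9.93 and 6.83 on the log2 scale.

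ATA27, a glycosyl hydrolase of the anther, had the largest fitted fall of the genes named. It had 0 and 0 CPM in ask1 open flowers and 903.3 and 814.4 in ask1 buds, which made it at least 9370-fold lower in open flowers when set against 3 counts over the group (adjusted p = 2.39e-08). It lies on chromosome 1 at 28511142 to 28514284, beside the extracellular lipase genes EXL6 (28508072 to 28509881) and EXL4 (28501434 to 28503283) and next to ASK1. EXL4 and EXL6, lipases of the pollen coat, fell too, EXL6 to 0 and 0 CPM in open flowers against 48.4 and 68.0 in buds. In ASK1 WT, ATA27 had 0 and 0.0583 CPM in open flowers and 1049 and 1144 in buds. LTP12, a lipid transfer protein, had 0 and 0 CPM in open flowers and 416.9 and 392.4 in buds, at least 4410-fold lower. SHT, which joins spermidine to hydroxycinnamic acids for the pollen wall, had 0 and 0 CPM in open flowers and 311.0 and 290.4 in buds. Its value is uncertain, since it overlaps a gene on the other strand and has a close copy.

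The enzymes that build sporopollenin, the polymer of the outer pollen wall, fell as well. CYP703A2, a fatty acid hydroxylase, had 0 and 0 CPM in ask1 open flowers against 70.1 and 62.4 in ask1 buds, at least 723-fold lower. MEE48, a glucanase homologue of the tapetum, had 0 and 0.118 CPM in open flowers and 336.2 and 318.8 in buds. A7 and ATA1, a lipid-transfer-like protein and a dehydrogenase of the tapetum, were at least 1490-fold and at least 1310-fold lower in open flowers. No library of the open flowers reached the level of any bud library for these genes. ABCG26, the exporter of wall precursors, was at least 754-fold lower but overlaps an antisense gene. The member that rose was CEP1, a protease of tapetal cell death, with 15.3 and 16.1 CPM in open flowers and 1.64 and 1.15 in buds (log2 fold change 3.47 ± 0.19, adjusted p = 3.18e-07). ATA20, an anther gene outside the lists and among the 12 most abundant of ask1 buds, had 4.945 and 3.297 CPM in open flowers and 2133 and 2109 in buds. The falls in ASK1 WT were similar in size, with a list median of -6.21 for the tapetum genes. Of all genes tested, 18.4% rose and 16.9% fell in ASK1 WT. The change from buds was higher in ask1 than in ASK1 WT for 4.45% of genes and lower for 2.36%, and for 4.988% and 9.395% without open flower replicate 1. A difference of that kind passed for 1 of the 32, LAP6, a polyketide synthase of sporopollenin synthesis (0.73 on the log2 scale, adjusted p = 0.0296).

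Meiosis genes fell where they changed. Of 30 tested, none rose and 12 fell (median log2 fold change -0.83), and 9 fell without open flower replicate 1. Their summed level was 89.1 and 97.1 CPM in ask1 open flowers and 147.2 and 138.1 in ask1 buds. SDS, a meiosis-specific cyclin, had 0.707 and 1.24 CPM in open flowers and 3.27 and 3.18 in buds (log2 fold change -1.72 ± 0.32, adjusted p = 0.00163). RCK, a helicase that makes crossovers, had 0.514 and 1.24 CPM in open flowers and 3.27 and 4.67 in buds. The open-flower values of both genes lay below every bud value, and RCK overlaps an antisense gene. MMD1, needed for male meiotic division, had 0.0642 and 0 CPM in open flowers and 0.654 and 0.542 in buds, a ratio in favour of buds of 19.7 (95% interval 3.15 to 815). Without bud replicate 2 only 7 members passed, and MMD1 did not (adjusted p = 0.0689).

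**Figure D3:**
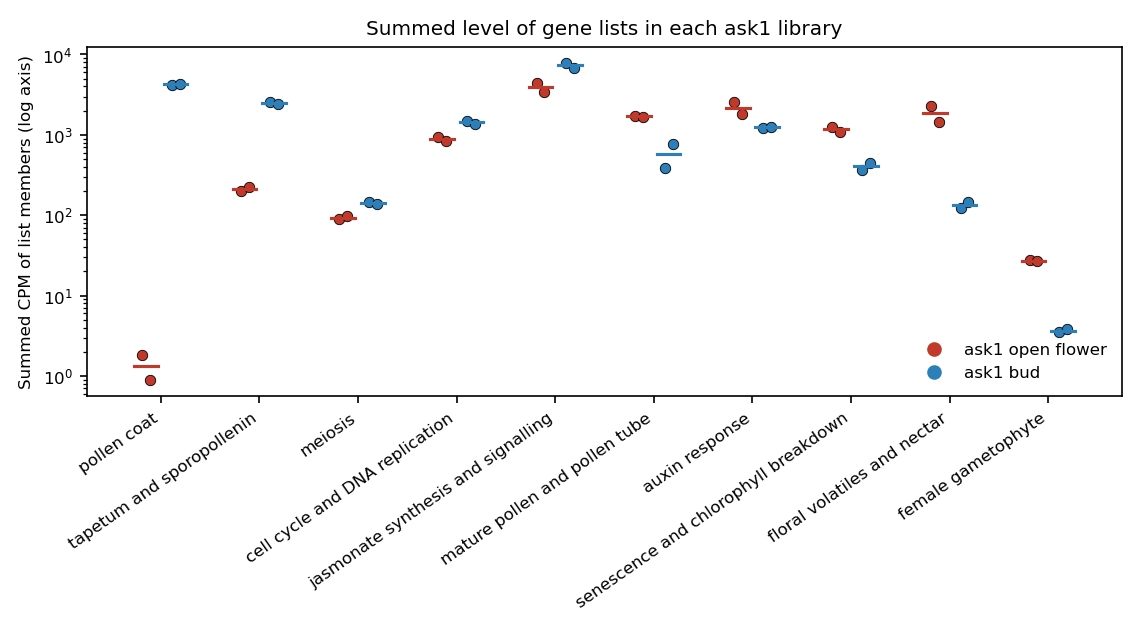
Summed CPM of the members of gene lists (log axis) in each of the 4 ask1 libraries, open flowers left of buds in each list. Tapetum genes sum to 198.8 and 222.3 CPM in open flowers against 2554 and 2434 in buds, and mature-pollen genes to 1724 and 1662 against 387.2 and 761.2.

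Mature-pollen and pollen-tube genes rose. Of 56 tested, 36 were higher in ask1 open flowers and 3 were lower (median log2 fold change 1.90), with 33 and 3 without open flower replicate 1 and 41 and 3 without bud replicate 2. They summed to 1724 and 1662 CPM in open flowers and 387.2 and 761.2 in buds, so that bud replicate 2 held more than its mate. STP11, a hexose transporter of the pollen tube, had 39.8 and 38.9 CPM in open flowers and 0.109 and 1.35 in buds (log2 fold change 5.84 ± 0.46, adjusted p = 3.80e-06). BCP1, an arabinogalactan protein of pollen, had 130.6 and 97.0 CPM in open flowers and 1.31 and 4.60 in buds. Both were high in each open-flower library, while the bud libraries differed from each other several-fold. PRK5, a receptor kinase of pollen, had 3.28 and 2.94 CPM in open flowers and 0 and 0.271 in buds.

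For several pollen genes the change differed from that in ASK1 WT, in whose buds they were already present. STP11 had 383.8 and 331.0 CPM in open flowers of ASK1 WT and 43.0 and 40.6 in ASK1 WT buds, and its rise in ask1 was larger by 2.75 on the log2 scale (adjusted p = 0.0193). Over the list, the change from buds was higher in ask1 than in ASK1 WT for 11 genes and lower for 1. Against Col-0 it was higher for 5 and lower for 2, where 2.80% and 2.16% of all genes were so called. These comparisons share the ask1 libraries. MYB101, a transcription factor of the pollen tube, was lower in ask1 open flowers at 12.3 and 11.1 CPM, against 19.0 and 22.4 in ask1 buds (log2 fold change -0.82 ± 0.15). In ASK1 WT it had 104.6 and 95.2 CPM in open flowers and 39.3 and 45.0 in buds, so that the changes ran in opposite directions and differed by -2.07 (adjusted p = 0.000904). AHA6 and AHA9, plasma membrane proton pumps of pollen, fell in ask1, but neither passed without open flower replicate 1 (adjusted p = 0.0983 and 0.0716).

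Of 13 sperm-cell genes listed, 11 were tested, and 3 rose and none fell, a share of risen genes near that of all genes (22.2%). Without open flower replicate 1, 4 rose and 1 fell. DAZ3, a zinc-finger gene of the male germline, had 9.31 and 6.18 CPM in ask1 open flowers and 0.0545 and 0.542 in ask1 buds (log2 fold change 4.78 ± 0.51, adjusted p = 3.74e-05). The values in ASK1 WT were 56.9 and 49.2 CPM in open flowers and 16.0 and 11.7 in buds. GEX1, a nuclear-fusion protein of gametes, and PCR11, a germline target of DUO1, were the other 2 risen members, at log2 fold changes of 1.58 and 4.12.

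Genes of the female gametophyte, the small haploid plant inside the ovule, rose nearly throughout. The expression filter keeps a gene through the tissue where it is high, so these counts describe the members that passed it. Of 15 tested of 19 listed, 14 were higher and none was lower, and 12 were higher without open flower replicate 1. The list median was 6.92, or 3.25 with genes at 0 in buds set to their bound. The members summed to 27.6 and 27.0 CPM in ask1 open flowers and 3.49 and 3.86 in ask1 buds. EC1.5, an egg-cell peptide released at fertilization, had 2.89 and 1.71 CPM in open flowers and 0 and 0 in buds, at least 25.1-fold higher. EC1.3 had 1.16 and 1.65 CPM in open flowers and 0 and 0 in buds. Both were absent from the bud counts and present in each open-flower library. LURE1.3, LURE1.4 and LURE1.5, attractants of pollen tubes from the synergid cells, were at 1.22 to 2.06 CPM in open flowers and at 0 in both bud libraries, but their near-identical copies make the split of reads among them uncertain. No member differed in its change from that in ASK1 WT or Col-0 at an adjusted p below 0.05 (edgeR), while 6 were higher against ASK1 WT and 1 against Col-0 at an unadjusted p below 0.05, and 1 against ASK1 WT by DESeq2.

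Ovule and gynoecium regulators split by direction. Of 21 tested, 10 rose and 8 fell, with 8 and 8 without open flower replicate 1. Among those that rose were STK, SHP2 and FUL, MADS-box genes of ovule and fruit, and IND, a bHLH gene of valve margins. IND had 5.27 and 6.18 CPM in ask1 open flowers and 1.53 and 1.69 in ask1 buds (log2 fold change 1.83 ± 0.27, adjusted p = 0.000349). HEC2, a bHLH gene of transmitting tissue, had 0 and 0 CPM in open flowers and 2.40 and 2.24 in buds, at least 25.2-fold lower, and HEC1 and HEC3 fell as well. ETT, an auxin response factor that patterns the gynoecium, had 30.5 and 32.6 CPM in open flowers and 91.7 and 85.3 in buds (log2 fold change -1.49 ± 0.12, adjusted p = 4.97e-06). For ETT and IND the libraries of the tissues did not overlap. Without bud replicate 2 the risen members numbered 6. STK and SHP2 overlap antisense genes. Of 21 seed and embryo genes, 6 passed the expression filter and were tested, and SESA4, a storage albumin, and FUS3, an embryo regulator, fell, also without open flower replicate 1. The list summed to 29.09 and 33.44 CPM in open flowers and 36.48 and 35.01 in buds.

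Genes of floral organ identity and the meristem moved in both directions. Of 25 tested, 6 rose and 9 fell, with 6 and 10 without open flower replicate 1. The risen share was near that of all genes tested (22.2%). With the 4 ask1 libraries alone, 0 rose and 6 fell of 24 tested, and beyond 2-fold 0 rose and 4 fell. In the fit of all libraries the risen members included SOC1, a MADS-box gene of flowering, and BOP2, a regulator of organ boundaries. WUS, which keeps stem cells in the meristem, had 0 and 0 CPM in ask1 open flowers and 17.01 and 18.21 in ask1 buds, at least 190-fold lower. LFY, the regulator of floral fate, had 0 and 0 CPM in open flowers and 0.763 and 1.42 in buds, at least 11.5-fold lower. Neither gene was counted in any ask1 open-flower library. AP1, of sepals and petals, had 61.7 and 46.8 CPM in open flowers and 150.1 and 144.7 in buds (log2 fold change -1.44 ± 0.16, adjusted p = 5.44e-05). PI, of petals and stamens, was opposite, with 308.7 and 218.7 CPM in open flowers and 169.1 and 180.6 in buds (log2 fold change 0.59 ± 0.16, adjusted p = 0.0156). Its change differed from that in ASK1 WT, which held 172.3 and 186.6 CPM in open flowers and 241.7 and 252.5 in buds, by 1.05 (adjusted p = 0.0242).

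Cell-cycle and DNA-replication genes fell together. Of 41 tested, none rose and 30 fell (median log2 fold change -0.67), with 34 fallen without open flower replicate 1 and 25 without bud replicate 2. They summed to 941.7 and 849.7 CPM in ask1 open flowers and 1489 and 1361 in ask1 buds. TPX2, a spindle protein, had 14.8 and 13.3 CPM in open flowers and 37.7 and 39.1 in buds (log2 fold change -1.45 ± 0.13, adjusted p = 8.24e-06), and overlaps an antisense gene. HIK, the kinesin that directs the new cell plate, had 18.4 and 18.5 CPM in open flowers and 48.1 and 45.8 in buds. MCM6, a subunit of the replicative helicase, had 11.8 and 13.6 CPM in open flowers and 35.2 and 25.5 in buds (log2 fold change -1.26 ± 0.16, adjusted p = 0.000135). In each of these 3 genes both open-flower libraries were below both bud libraries.

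In ASK1 WT, 9 members of the list were lower and 3 higher, with a median of -0.16, where 16.9% and 18.4% of all genes were so called. A lower change in ask1 than in ASK1 WT passed for 11 of the 41 and a higher one for none, and without open flower replicate 1 a lower one passed for 27, where 9.395% of all genes did. HIK had 42.8 and 35.4 CPM in open flowers of ASK1 WT and 46.2 and 49.7 in ASK1 WT buds, and its change in ask1 was lower by -1.05 (adjusted p = 0.0102). MCM6 had 27.3 and 29.0 CPM in open flowers of ASK1 WT and 30.3 and 32.6 in ASK1 WT buds, and its difference was -1.10 (adjusted p = 0.0171). For both genes the bud values overlapped between ask1 and ASK1 WT, and the ask1 open flowers stood below every other library named here. Against Col-0, 5 members were lower and none higher (1 at an unadjusted p below 0.05), where 2.16% and 2.8% of all genes were.

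Promoters of this list are shown because many of its members moved together and their start regions hold letters known from cell-cycle genes. E2F factors bind TTTCCCGC and TTTGGCGC in promoters of replication genes, and MYB3R factors bind the mitosis-specific activator (MSA) core, searched as CCAACGG and CTAACGG. Both strands of the 250 bases before each gene start (RefSeq, TAIR10.1) were searched, and neither motif contains the other. An E2F match was found before 6 of 41 list members (14.6%) and before 5 of the 30 that fell (16.7%), which were MCM2, MCM3, MCM4, MCM5 and MCM6, against 221 of 21825 tested genes (1.01%). An MSA match was found before 8 of 41 (19.5%) and before 7 of the 30 (23.3%), which were CYCB1;1, CYCB1;2, CYCB2;1, CYCB2;2, CYCB2;3, HIK and TPX2, against 635 of 21825 (2.91%). Such a match is a description of letters and not a shown binding site. The 4 windows below were chosen for their matches, which are in capitals. They run 5′ to 3′ along the gene's strand and end at the base before the annotated start, and none overlaps an annotated exon. They precede MCM5 (chr2:3527501-3527750, minus strand), MCM6 (chr5:18010668-18010917, minus strand), CYCB1;2 (chr5:1861704-1861953, minus strand) and CYCB2;2 (chr4:16901346-16901595, plus strand).
MCM5: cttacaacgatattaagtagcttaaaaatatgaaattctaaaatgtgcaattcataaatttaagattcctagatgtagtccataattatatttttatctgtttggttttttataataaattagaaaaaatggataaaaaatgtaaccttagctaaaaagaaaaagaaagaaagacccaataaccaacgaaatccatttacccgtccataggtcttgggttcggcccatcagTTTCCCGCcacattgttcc
MCM6: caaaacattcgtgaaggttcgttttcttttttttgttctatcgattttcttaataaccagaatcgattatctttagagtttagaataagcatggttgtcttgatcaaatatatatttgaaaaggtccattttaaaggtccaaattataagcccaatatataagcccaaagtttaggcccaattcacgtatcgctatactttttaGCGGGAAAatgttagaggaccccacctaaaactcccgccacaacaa
CYCB1;2: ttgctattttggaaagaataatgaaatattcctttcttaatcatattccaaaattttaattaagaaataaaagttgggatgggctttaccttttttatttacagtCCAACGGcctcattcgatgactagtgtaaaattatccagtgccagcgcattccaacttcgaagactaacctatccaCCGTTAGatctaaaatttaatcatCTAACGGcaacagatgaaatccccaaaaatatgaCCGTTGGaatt
CYCB2;2: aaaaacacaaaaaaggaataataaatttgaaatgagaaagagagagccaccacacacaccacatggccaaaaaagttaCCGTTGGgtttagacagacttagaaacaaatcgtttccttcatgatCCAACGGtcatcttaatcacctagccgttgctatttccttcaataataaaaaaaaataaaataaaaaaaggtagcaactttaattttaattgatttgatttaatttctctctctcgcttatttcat
The E2F match began 19 bases before the start in MCM5 and 46 bases before it in MCM6, where it was on the opposite strand. CYCB1;2 held 4 MSA matches, at 145, 69, 45 and 11 bases before the start. MCM5, a helicase subunit like MCM6, fell with a log2 fold change of -0.90 ± 0.13 (adjusted p = 0.000291). CYCB1;2 and CYCB2;2, cyclins of mitosis, fell with log2 fold changes of -0.98 ± 0.13 (adjusted p = 0.000135) and -0.99 ± 0.17 (adjusted p = 0.00108).

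MYB genes that drive the last steps of stamen growth rose. MYB57 had 81.3 and 45.0 CPM in ask1 open flowers and 0.218 and 0.474 in ask1 buds (log2 fold change 7.53 ± 0.48, adjusted p = 1.01e-06). MYB24 had 43.8 and 37.9 CPM in open flowers and 3.05 and 3.79 in buds (log2 fold change 3.58 ± 0.24, adjusted p = 1.32e-06). MYB108 had 24.0 and 26.1 CPM in open flowers and 1.58 and 2.98 in buds (log2 fold change 3.49 ± 0.31, adjusted p = 9.12e-06). MYB21 rose by 2.40, and in all 4 genes the tissues did not overlap, as held in this direction for 7413 of 21890 tested genes. MYB21, MYB24 and MYB57 overlap antisense genes, and MYB24 has a close copy.

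MYB108 and MYB24 were higher in buds of ASK1 WT than in ask1 buds. MYB108 had 24.8 and 21.7 CPM in open flowers of ASK1 WT and 18.5 and 27.6 in ASK1 WT buds, so that its change in ask1 was higher by 3.48 (adjusted p = 0.00137). MYB24 had 5.94 and 5.36 CPM in open flowers of ASK1 WT and 15.3 and 9.61 in ASK1 WT buds, and its difference was 4.71 (adjusted p = 0.000404). The open-flower values of MYB108 overlapped between ask1 and ASK1 WT, and the bud values did not. MYB24 differed in both tissues, being higher in ask1 open flowers than in those of ASK1 WT and lower in ask1 buds. Against Col-0 the differences were 1.93 for MYB108 and 3.48 for MYB24 (adjusted p = 0.0247 and 0.00111). The other stamen genes that passed fell: MYB26 and NST1, which thicken the anther wall, and ADPG1 and QRT2, pectin-cutting polygalacturonases. QRT2 rests on 0.257 and 0.236 CPM in open flowers and 1.58 and 1.90 in buds. Of the 12 genes tested, 4 rose and 4 fell, with 4 and 5 without open flower replicate 1.

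More jasmonate genes fell than rose in ask1. Of 34 tested, 4 rose and 17 fell (median log2 fold change -0.90), with 5 and 17 without open flower replicate 1 and 3 and 15 without bud replicate 2. In ASK1 WT 9 rose and 2 fell, with a median of 0.36, where 18.4% and 16.9% of all genes rose and fell. LOX3, a lipoxygenase of jasmonate synthesis, had 15.03 and 19.19 CPM in ask1 open flowers and 67.0 and 117.2 in ask1 buds (log2 fold change -2.42 ± 0.26, adjusted p = 3.41e-05). Its level was 53.7 and 57.0 CPM in open flowers of ASK1 WT and 30.6 and 30.6 in ASK1 WT buds, and the 2 changes differed by -3.28 (adjusted p = 0.00118). Relative to ASK1 WT, LOX3 was thus lower in ask1 open flowers and higher in ask1 buds. LOX4 and AOC3, further enzymes of the pathway, fell too, with differences from ASK1 WT of -4.45 (adjusted p = 0.00258) and -3.33 (adjusted p = 0.00597). JAZ5, a repressor that the hormone removes, had 3.79 and 4.95 CPM in ask1 open flowers and 23.2 and 51.4 in ask1 buds (log2 fold change -3.08 ± 0.34, adjusted p = 4.99e-05).

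The bud values of LOX3 and JAZ5 were higher in replicate 2 than in replicate 1, and both were above the open flowers. Over the list, the change in ask1 was lower than in ASK1 WT for 13 genes and lower than in Col-0 for 14. It was higher for none (1 against each control at an unadjusted p below 0.05). Of all genes tested, 2.36% had a lower change in ask1 than in ASK1 WT and 2.16% than in Col-0. The 4 members that rose were JAZ10 and JAZ11, repressors, MYC4, a transcription factor, and JMT, which methylates jasmonate. JAZ10 had 41.6 and 42.7 CPM in ask1 open flowers and 22.9 and 22.5 in ask1 buds (log2 fold change 0.89 ± 0.11, adjusted p = 0.000107), and overlaps an antisense gene. JMT did not pass without open flower replicate 1 (adjusted p = 0.191).

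**Figure D4:**
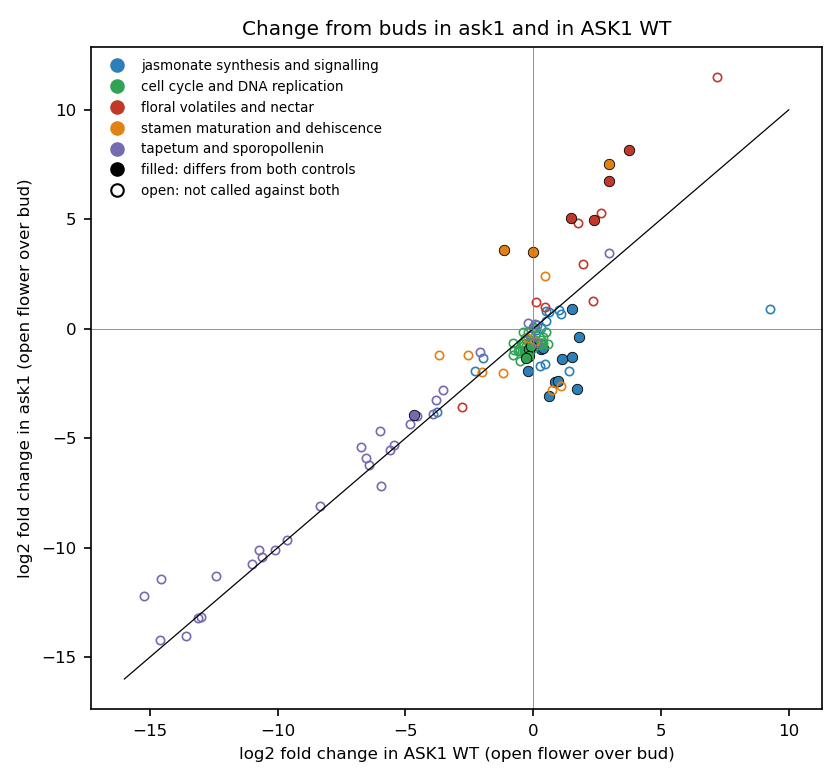
Log2 fold change of open flowers over buds in ask1 (vertical axis) and in ASK1 WT (horizontal axis) for members of chosen lists; filled points differed from both controls and open points did not. Volatile and nectar genes and stamen genes that are filled lie above the diagonal, and filled jasmonate genes below it.

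Auxin-response genes rose. Of 43 tested, 29 were higher and 1 was lower (median log2 fold change 1.22), with 21 and 1 without open flower replicate 1. They summed to 2540 and 1837 CPM in ask1 open flowers and 1233 and 1258 in ask1 buds. IAA17, a repressor of auxin response, had 50.9 and 31.8 CPM in open flowers and 5.02 and 3.93 in buds (log2 fold change 3.196 ± 0.232, adjusted p = 2.38e-06). IAA14 had 4.82 and 3.06 CPM in open flowers and 0.382 and 0.339 in buds. SAUR68, a small protein of cell growth, had 5.65 and 1.71 CPM in open flowers and 0.0545 and 0.0677 in buds, a ratio of 59.5 (95% interval 16.1 to 497). For all 3 genes open flower replicate 1 held more than replicate 2, and both were above the buds. The member that fell was GH3.5, which joins auxin to amino acids, with 23.5 and 26.2 CPM in open flowers and 54.0 and 74.8 in buds (log2 fold change -1.37 ± 0.21, adjusted p = 0.000471).

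Gibberellin and ethylene genes were described by step. Of 21 gibberellin genes tested, 7 rose and 6 fell, and the counts were the same without open flower replicate 1. GA20OX2, which makes the late precursors of the hormone, had 30.1 and 35.7 CPM in ask1 open flowers and 3.435 and 4.198 in ask1 buds (log2 fold change 3.11 ± 0.17, adjusted p = 3.72e-07). GA3OX1, which makes the active form, had 4.62 and 5.48 CPM in open flowers and 1.53 and 0.813 in buds. Both synthesis genes were higher in each open-flower library, and GA20OX1 rose too. GA3OX3, of the same family as GA3OX1, fell. Of the GA2OX genes, which inactivate the hormone, GA2OX2 rose and GA2OX1 and GA2OX3 fell. The repressors RGL1 and RGL2 fell by 0.51 and 0.70 on the log2 scale. Of 18 ethylene genes tested, 10 rose and 1 fell, with 12 and none without open flower replicate 1. ACS8, an enzyme of ethylene synthesis, had 3.15 and 1.65 CPM in open flowers and 0.0545 and 0 in buds. ACS6, the member that fell, rests on bud replicate 2, at 9.51 and 8.95 CPM in open flowers and 12.8 and 47.5 in buds, and did not pass without it (adjusted p = 0.289).

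Scent and nectar genes rose steeply. Of 12 tested, 11 were higher and 1 was lower (median log2 fold change 4.88), with 10 and 1 without open flower replicate 1. They summed to 2317 and 1445 CPM in ask1 open flowers and 122.1 and 144.4 in ask1 buds. SWEET9, the sugar exporter of nectaries, had 180.2 and 133.5 CPM in open flowers and 0.436 and 0.677 in buds (log2 fold change 8.15 ± 0.30, adjusted p = 2.95e-08). CYP76C3, a linalool oxidase, had 442.5 and 260.6 CPM in open flowers and 2.02 and 4.74 in buds (log2 fold change 6.73 ± 0.44, adjusted p = 1.11e-06). TPS10, a linalool synthase, had 545.5 and 226.3 CPM in open flowers and 7.53 and 12.5 in buds. The levels in both open-flower libraries were far above the buds, and replicate 1 held the more of each gene. CYP71B31, another oxidase of linalool, had 101.7 and 114.5 CPM in open flowers and 0 and 0.0677 in buds, a ratio of 3590 (95% interval 644 to 142000). BSMT1, which methylates benzoic and salicylic acid, fell, with 1.22 and 0.471 CPM in open flowers and 11.9 and 7.79 in buds, and overlaps an antisense gene.

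The rise was steeper in ask1 than in ASK1 WT for 6 of the 12 genes and than in Col-0 for 4. It was less steep for none (1 against Col-0 at an unadjusted p below 0.05 and by DESeq2). Of all genes tested, 4.45% had a higher change in ask1 than in ASK1 WT and 2.8% than in Col-0. SWEET9 had 197.1 and 170.7 CPM in open flowers of ASK1 WT and 15.7 and 11.7 in ASK1 WT buds, and its change in ask1 was higher by 4.40 (adjusted p = 0.000461). CYP76C3 had 397.7 and 372.2 CPM in open flowers of ASK1 WT and 56.2 and 42.7 in ASK1 WT buds, a difference of 3.76 (adjusted p = 0.00310). For both genes the open-flower values overlapped between ask1 and ASK1 WT, while the ask1 bud values lay below those of ASK1 WT. The list median of the change was 2.15 in ASK1 WT.

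Senescence genes rose as well. Of 17 tested, 13 were higher and none was lower (median log2 fold change 1.45), and the counts were the same without open flower replicate 1. They summed to 1270 and 1071 CPM in ask1 open flowers and 368.0 and 452.2 in ask1 buds. SAG12, a protease of ageing tissue, had 157.4 and 50.2 CPM in open flowers and 0 and 0 in buds, at least 1120-fold higher (adjusted p = 4.01e-05). It was counted in both ask1 open-flower libraries and in no ask1 bud library. Open flowers held more of it in the controls, at 1106 and 1281 CPM in ASK1 WT and 962.9 and 502.6 in Col-0. With buds at or near 0, its change did not differ from that in ASK1 WT (-1.20 ± 6.38 on the log2 scale, edgeR adjusted p = 0.938). NAP, a NAC factor that promotes ageing, had 56.4 and 41.3 CPM in open flowers and 5.13 and 10.4 in buds (log2 fold change 2.67 ± 0.34, adjusted p = 0.000124). In ASK1 WT it had 84.5 and 97.6 CPM in open flowers and 2.21 and 3.93 in buds, and its rise in ask1 was different by -2.197 (adjusted p = 0.0254), a difference that did not pass against Col-0 (adjusted p = 0.193). SAG13, a dehydrogenase, had 65.1 and 63.0 CPM in ask1 open flowers and 7.20 and 5.35 in ask1 buds, and its rise was smaller than in ASK1 WT by -1.59 (adjusted p = 0.0112).

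Flavonoid genes moved in both directions. Of 26 tested, 10 rose and 9 fell, with 7 and 11 without open flower replicate 1. BAN, which makes the building blocks of seed-coat tannin, had 14.9 and 22.7 CPM in ask1 open flowers and 0.273 and 0.0677 in ask1 buds (log2 fold change 6.65 ± 0.57, adjusted p = 8.29e-06). DFR and LDOX, the steps before it, rose by 5.43 and 3.57, as did TT2, a MYB activator of the branch, by 3.41. FLS1, the flavonol synthase, had 102.2 and 57.5 CPM in open flowers and 374.0 and 273.4 in buds (log2 fold change -2.02 ± 0.24, adjusted p = 9.18e-05). MYB12, its activator, had means of 3.862 CPM in open flowers and 15.42 in buds (n = 2 each; log2 fold change -1.998 ± 0.185, adjusted p = 1.36e-05). Among the other fallen members were CHIL and TT5, which act in early steps shared by the branches, and GL3, a bHLH regulator. No member changed differently from ASK1 WT or Col-0 at an adjusted p below 0.05 (edgeR), while 3 members did so against each control at an unadjusted p below 0.05, and 2 against ASK1 WT by DESeq2. Without open flower replicate 1, 4 were lower than in ASK1 WT.

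The remaining lists changed little or depended on a library, and are set beside 22.2% risen and 15.5% fallen of all genes tested. Of 14 ASK family genes tested of 21 listed, none rose (2 at an unadjusted p below 0.05, 1 by DESeq2) and 4 fell, ASK3, ASK12, ASK14 and ASK19, all at or below 2.95 CPM, and ASK12 did not pass without open flower replicate 1 (adjusted p = 0.126), where 1 member rose and 5 fell. Of 23 SCF partners and F-box genes, 7 rose and none fell (1 at an unadjusted p below 0.05), with 11 and 1 without that library. KMD2, an F-box protein of cytokinin response, had 104.4 and 134.6 CPM in ask1 open flowers and 16.7 and 24.2 in ask1 buds (log2 fold change 2.55 ± 0.26, adjusted p = 2.73e-05). Of 11 abscission genes, 2 rose and 2 fell, with or without that library. HAE, the receptor kinase that starts the shedding of organs, had 34.9 and 60.9 CPM in ask1 open flowers and 16.0 and 24.5 in ask1 buds (log2 fold change 1.25 ± 0.27, adjusted p = 0.00420). Its rise was smaller than in ASK1 WT, which had 109.3 and 141.0 CPM in open flowers and 12.1 and 13.1 in buds, by -2.06 (adjusted p = 0.0123).

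Of 24 expansin genes tested, 6 rose and 2 fell, with 4 and 8 without open flower replicate 1. EXPA11, which loosens cell walls, had 225.9 and 157.4 CPM in ask1 open flowers and 16.4 and 20.8 in ask1 buds (log2 fold change 3.37 ± 0.25, adjusted p = 2.86e-06). EXPA4 had 161.1 and 134.8 CPM in ask1 open flowers and 66.4 and 73.5 in ask1 buds. Against ASK1 WT the change was higher for EXPA11, by 2.46 (adjusted p = 0.00286), and lower for EXPA4, by -1.54 (adjusted p = 0.00183). Of 32 photosynthesis genes, 12 rose and none fell, but 6 rose and 2 fell without open flower replicate 1. Of 23 clock genes, 6 rose and none fell, with 13 and 1 without that library. PRR9, a repressor in the clock, had 9.70 and 9.36 CPM in open flowers and 3.76 and 3.25 in buds (log2 fold change 1.44 ± 0.18, adjusted p = 0.000126). The risen shares of the expansin and clock lists, and of the stress list below, were near that of all genes tested (22.2%). Of 18 heat and rapid stress genes, 4 rose and 1 fell, with 3 and none without that library, and the list summed to 478.2 and 485.5 CPM in open flowers and 133.1 and 382.5 in buds. Among 48 genes listed by product as histones, which include methyltransferases of histone H3, 6 rose and 1 fell, and without open flower replicate 1 these were 5 and 26. Among 285 ribosomal protein genes 14 rose and 14 fell, and without it 9 and 164. The ribosomal protein genes were also listed by product, which can take in genes whose product only names such a family or domain. The counts for both of these lists thus depended on that library.

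The largest rises outside the lists included genes annotated as members of enzyme families. CYP71B8, a cytochrome P450, had 9.51 and 9.24 CPM in ask1 open flowers and 0 and 0 in ask1 buds, at least 103-fold higher. scpl38, a serine carboxypeptidase-like protein, had 32.8 and 33.0 CPM in open flowers and 0.0545 and 0.135 in buds, a ratio of 363 (95% interval 124 to 1760). AAE11, an acyl-activating enzyme, had 132.6 and 91.7 CPM in open flowers and 0.545 and 0.542 in buds (log2 fold change 7.67 ± 0.37, adjusted p = 1.33e-07). Each of the 3 genes was near 0 in both bud libraries. GSTU3, a glutathione transferase, was at least 85.4-fold higher. LCR48 and LCR19, small cysteine-rich proteins, were at least 76.9-fold and 57.6-fold higher. Among the falls, LCR66 of the same family, with 0 and 0 CPM in open flowers and 68.8 and 72.6 in buds, was at least 765-fold lower, sks18, a multicopper-oxidase-like protein, at least 583-fold lower and RHS14, a pectate lyase-like gene, at least 517-fold lower.

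The change from buds was then compared between genotypes over all genes. It was higher in ask1 than in ASK1 WT for 975 genes and lower for 517, and higher than in Col-0 for 613 and lower for 473 (edgeR, adjusted p below 0.05). Without open flower replicate 1 the balance turned round, with 1114 higher and 2098 lower against ASK1 WT and 766 and 1873 against Col-0. Leaving out other single libraries moved the counts against ASK1 WT to between 256 and 4706 higher and between 155 and 3865 lower. Against both controls it was higher for 481 (2.2%) and lower for 291 (1.33%), and 369 and 254 of these also passed against both without open flower replicate 1. The comparisons share the ask1 libraries, so that the second is no independent repeat. Of the 481, 97 rose in both ask1 and ASK1 WT, 123 passed as risen in ask1 alone, 57 rose in ask1 and fell in ASK1 WT, 119 passed as fallen in ASK1 WT alone, and 85 fell in both. Of the 291, 49 rose in both, 90 passed as risen in ASK1 WT alone, 49 fell in ask1 and rose in ASK1 WT, 68 passed as fallen in ask1 alone, and 35 fell in both.

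Among the higher changes, the largest were mostly of genes far more abundant in control buds than in ask1 buds. AHA9 had 4.62 and 9.54 CPM in ask1 open flowers and 23.1 and 74.6 in ask1 buds, against 1.98 and 1.11 in open flowers of ASK1 WT and 533.9 and 684.3 in ASK1 WT buds. It fell in both genotypes, by less in ask1, and the changes differed by 5.81 ± 0.78 (adjusted p = 0.00281). It overlaps an antisense gene by 39 bases. SULTR3;5, a sulfate transporter, had 13.7 and 23.3 CPM in ask1 open flowers and 3.05 and 7.18 in ask1 buds, against 9.62 and 9.45 in open flowers of ASK1 WT and 57.6 and 70.0 in ASK1 WT buds. Here the direction differed, a rise in ask1 beside a fall in ASK1 WT, with a difference of 4.63 ± 0.47 (adjusted p = 0.000973). AAE11 rose in both, from a lower bud level in ask1, since ASK1 WT held 450.2 and 423.6 CPM in open flowers and 89.5 and 77.7 in buds, and its difference was 5.28 ± 0.44 (adjusted p = 0.000461).

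Among the lower changes, TI1, a trypsin inhibitor of the defensin type, passed with each library left out in turn. It had 9.89 and 3.42 CPM in ask1 open flowers and 49.4 and 41.2 in ask1 buds, against 19.02 and 20.06 in open flowers of ASK1 WT and 0.649 and 0.827 in ASK1 WT buds. The direction was thus opposite, and the changes differed by -7.47 ± 0.59 (adjusted p = 0.000461). The rapid stress regulators WRKY40, ERF11 and ERF13 had their high ask1 value in bud replicate 2. WRKY40 had 2.38 and 4.18 CPM in ask1 open flowers and 1.58 and 20.7 in ask1 buds, against 10.9 and 21.7 in open flowers of ASK1 WT and 0.324 and 0.620 in ASK1 WT buds. Its difference was -6.76 (adjusted p = 0.0189), and it was -3.98 (adjusted p = 0.0270) without bud replicate 2 and did not pass without open flower replicate 1 (adjusted p = 0.124).

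**Figure D5:**
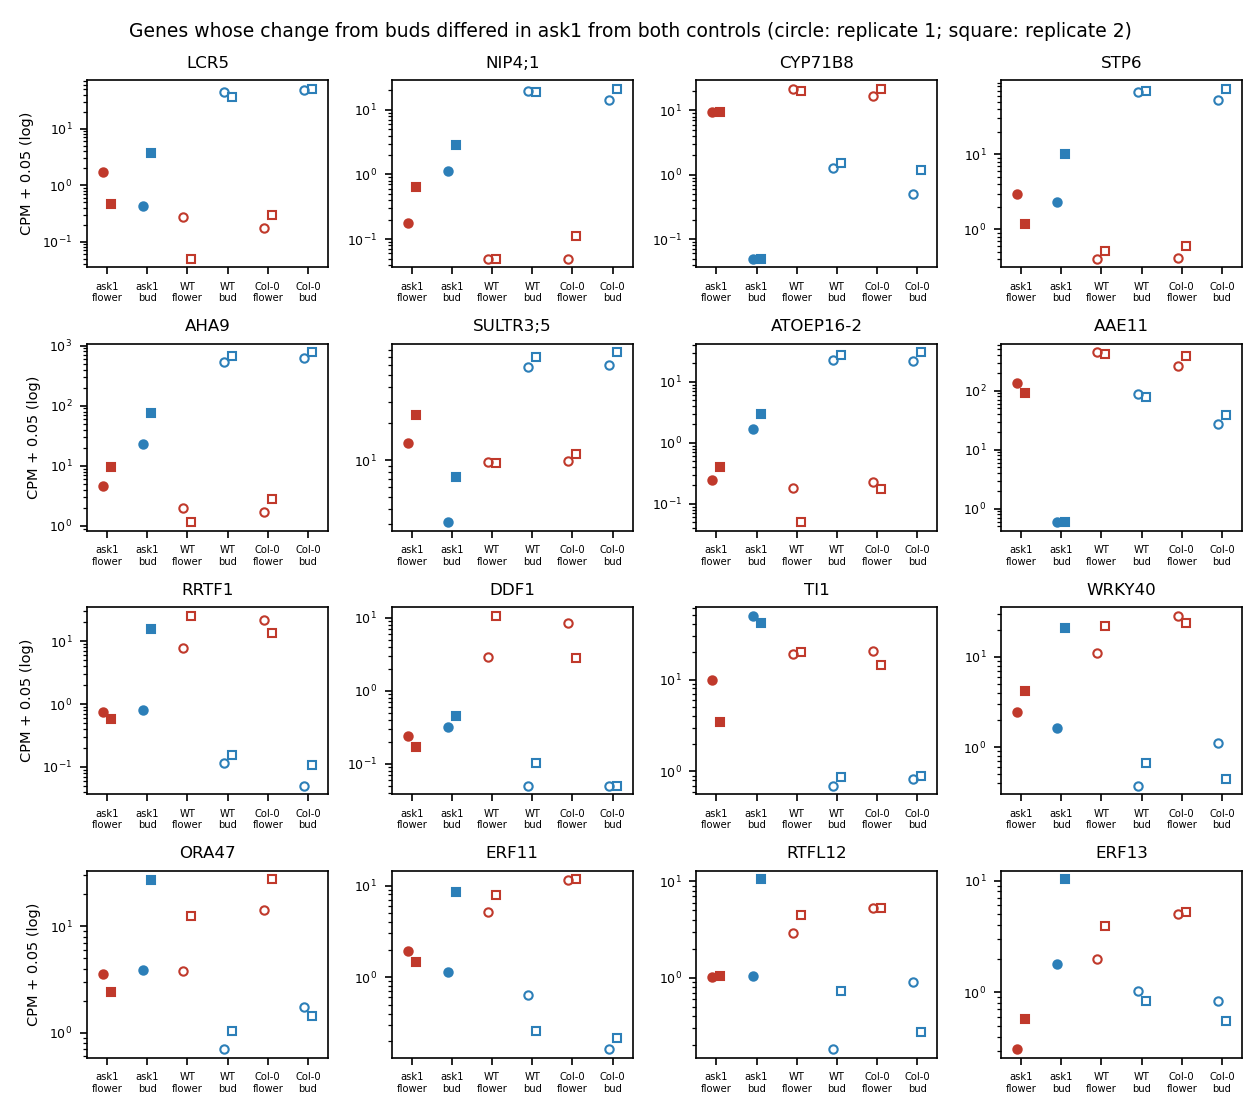
CPM plus 0.05 on log axes in all 12 libraries for genes whose change from buds in ask1 differed from that in both controls; each panel is 1 gene, groups run from ask1 to ASK1 WT to Col-0 with open flowers left of buds, circles are replicate 1 and squares replicate 2. TI1 is higher in ask1 buds (49.4 and 41.2 CPM) than in ASK1 WT buds (0.649 and 0.827 CPM), and AHA9 is lower.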

How the data were processed

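The authors deposited read counts per gene, 1 file per library, for 33602 genes and 5 summary lines. Trimmomatic, TopHat2, HTSeq and TAIR10 are named in the submitters' processing notes, without versions, and for the counting strand they give nothing. The summary lines, 7.60% to 9.70% of a library, were left out. Groups came from the labels. Replicate numbers follow accession order and pair nothing.

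Counts were kept by edgeR's filterByExpr (minimum count 10, minimum total 15), scaled by TMM and fitted over all 12 libraries with 1 mean per group of genotype and tissue (R 4.3.3, edgeR 4.0.16, limma 3.58.1; robust quasi-likelihood, 6 residual degrees of freedom), with Benjamini-Hochberg adjustment over 21890 genes at 0.05. SEs were derived from the F statistics of the log2 fold changes. A difference in change between genotypes is an interaction contrast of this fit. The script was checked on simulated counts. Alternatives were RLE scaling, no filter, DESeq2 1.42.0, fewer libraries, removal of each library's trend with exon length, a test beyond 2-fold, and each library left out.

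A fold against a group at 0 uses 3 counts over the group. A group with 1 to 3 counts gets a ratio with a 95% interval. Both cover counting error only. Names, positions and sequences come from RefSeq TAIR10.1, in which 32835 gene identifiers were found. Genes overlapping an exon of the opposite strand, or with a copy of at least 95% identity over 30% of their length (blastn 2.17.0), are called uncertain. Figures used Python 3.11.15 and matplotlib 3.10.9.

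The members, gene lists (27, with 963 loci) and tests were chosen with earlier results of these data known. Named genes were ASK1 and ASK2, the 14 largest rises and falls with a symbol, groups that do not overlap and at least 5 CPM in the higher group, up to 5 per list and direction, and the 8 largest differences from both controls in each direction. Genes named outside this rule (ATA20, GRP14, GRP18, MCM5, CYCB1;2, CYCB2;2, LAP6 and others named for a count or a motif) were chosen after their values were seen. The result for 1 gene is not reported here.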

Additional observations from a re-analysis of the deposited data

Results flagged for a closer look

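The change from buds to open flowers differed in ask1 from that in both controls, by the interaction test in edgeR, for the genes named by rule, and the differences from ASK1 WT are given here on the log2 scale. Those higher in ask1 were LCR5 (7.37), a cysteine-rich peptide, NIP4;1 (9.02), a pollen water channel, CYP71B8 (6.40), STP6 (5.80), a pollen hexose transporter, AHA9 (5.81), SULTR3;5 (4.63), ATOEP16-2 (5.24), a plastid outer-envelope channel, and AAE11 (5.28). Those lower in ask1 were RRTF1 (-11.15), DDF1 (-8.62), TI1 (-7.47), WRKY40 (-6.76), ORA47 (-5.63), ERF11 (-5.59), RTFL12 (-5.57) and ERF13 (-5.57). Adjusted p ran from 0.000461 for AAE11 and TI1 to 0.0455 for DDF1. Where a group was at or near 0, the size is a fitted value without a bound. NIP4;1 had 0 and 0 CPM in ASK1 WT open flowers, and CYP71B8 had 0 and 0 in ask1 buds. LCR5 had 0.225 and 0 CPM in ASK1 WT open flowers, and ATOEP16-2 had 0.135 and 0. DDF1 had 0.193 and 0.118 CPM in ask1 open flowers, 0.273 and 0.406 in ask1 buds and 0 and 0.0517 in ASK1 WT buds.

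Without ask1 open flower replicate 1, LCR5 (adjusted p = 0.258) and STP6 (adjusted p = 0.188) no longer passed. In the lower set, DDF1 (0.175), RRTF1 (0.0904), WRKY40 (0.124), ORA47 (0.140), ERF11 (0.0802), RTFL12 (0.150) and ERF13 (0.0891) no longer passed by adjusted p in that fit. Without ask1 open flower replicate 2, NIP4;1 (0.105), ATOEP16-2 (0.0508), RRTF1 (0.0535), DDF1 (0.121), WRKY40 (0.0596), ORA47 (0.105), ERF11 (0.0522) and RTFL12 (0.0941) did not pass by adjusted p, and without ask1 bud replicate 1 CYP71B8 (0.0692) and DDF1 (0.125) did not. AHA9, SULTR3;5, AAE11 and TI1 passed with each of the 4 ask1 libraries left out. RRTF1 had 0.707 and 0.530 CPM in ask1 open flowers and 0.763 and 15.6 in ask1 buds, so its bud mean rests on replicate 2. Without ask1 bud replicate 2 its difference was -7.78 (adjusted p = 0.0225), and those of DDF1, ORA47 and RTFL12 did not pass (adjusted p = 0.138, 0.0533 and 0.0918). AHA9, RRTF1, WRKY40 and ORA47 overlap antisense genes.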

How the results depend on the processing

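For ask1 open flowers against buds, 4857 genes were higher and 3391 lower. With the 4 ask1 libraries alone these were 2004 and 1464, and beyond 2-fold 1627 and 1067. Leaving out 1 library gave 3210 to 7090 higher and 2370 to 5777 lower. For the change in ask1 minus that in ASK1 WT (975 higher, 517 lower), only the libraries compared gave 286 and 227, beyond 2-fold 156 and 57, and lower ones numbered 925 by DESeq2 and 1161 with the length trend removed. Leaving out 1 library gave 256 to 4706 higher and 155 to 3865 lower, the highest of both without ask1 open flower replicate 2 and the lowest without ASK1 WT open flower replicate 2 and ASK1 WT bud replicate 1. For ask1 minus Col-0 (613 higher, 473 lower), only the libraries compared gave 110 and 141, beyond 2-fold 73 and 39, and lower ones numbered 881 by DESeq2 and 888 with the length trend removed. Leaving out 1 library gave 128 to 4458 higher and 90 to 3734 lower, the highest again without ask1 open flower replicate 2 and the lowest without Col-0 open flower replicate 1 and Col-0 bud replicate 2. The fits of fewer libraries have fewer residual degrees of freedom and take the spread from other sets of libraries. Neither these nor other causes of the moved counts were tested. RLE scaling and no filter kept these counts within 1.5 times. Where a group was left with 1 library, it was assumed to vary like the other groups.

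For the 189 genes named in the tissue comparison, 1667 of 1878 alternative values kept their direction and side of the threshold, 208 no longer passed, 3 passed newly and 0 reversed. For the 16 named differences, 154 of 224 did and 70 no longer passed. Of 540 list counts, 124 moved by more than 1.5 times. A count of 0 allows up to 0.128 to 0.218 CPM in a library, which limits genes near that level. No paired analysis was possible because the labels give no replicate numbers.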

Other observations

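Annotated product families were counted after their counts had been seen, and get no test. All 20 tested genes of the ECA1 gametogenesis family, a family of small cysteine-rich proteins, were higher in ask1 open flowers, with sums of 76.6 and 78.5 CPM in ask1 open flowers and 0.109 and 0.0677 in ask1 buds (median log2 fold change 8.35, or 5.36 with genes at 0 set to their bound). Of 63 genes annotated as plant self-incompatibility S1 proteins, 32 passed the expression filter, and 25 of these rose. Of 188 defensin-like genes 61 passed it, and 32 rose and 5 fell. Among those tested, 17 and 34 were at 0 in 1 of the ask1 tissues. A gene passes the filter through a group where it is high, so the counts describe only the genes that passed the filter. The same holds for 17 genes of the ECA1 family. Of 108 annotated inhibitors of invertase or pectin methylesterase, 84 were tested, and 47 rose and 10 fell. These inhibitors summed to 3132 and 2773 CPM in open flowers and 1026 and 1248 in buds. Of all genes tested, 22.2% rose and 15.5% fell.

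SAUR-like genes of cell growth rose in 31 of 51 tested and fell in 4, but rose in 22 and fell in 8 of 54 without open flower replicate 1. Berberine-bridge enzymes rose in 17 of 24 and fell in 2. Microtubule motors rose in 4 of 44 and fell in 24, and 15 of the 44 were lower in their change than in ASK1 WT without open flower replicate 1, against 6 with it. Of all genes, 9.395% were lower in that way without that library and 2.36% with it. Of 276 tested F-box genes, the class of proteins that ASK1 links to cullin, 34 rose and 78 fell, where 22.2% and 15.5% of all genes did. The change was higher than in ASK1 WT for 6 and lower for 1, where 4.45% and 2.36% of all genes were so called. In ASK1 WT, 24 rose and 112 fell, where 18.4% and 16.9% of all genes did. RING and U-box genes, another class of ubiquitin ligases, rose in 66 of 237 and fell in 28.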
